A study of Mus musculus with 22 samples.

Results

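Pattern recognition receptors bind conserved molecules of microbes, or material released by injured cells, and start inflammatory signalling in the cells that carry them. The genes examined here were Cd14, Lbp, Tlr4, Tlr2, Myd88, Clec4d, Clec4e, Clec4n, Clec7a and Trem1, 10 of 20169 mouse genes named on the array. They were chosen by name, through the transcript that each array probe was designed against, and each had 1 probe. Lung RNA came from 22 female C57BL/6 mice, 8 weeks old at the start, each given 1 intratracheal instillation and killed 24 h later. Mitsui7, a multiwalled carbon nanotube, was given at 18 µg (6 mice), 54 µg (5 mice) or 162 µg (6 mice) in 40 µl of 0.9% NaCl with 10% bronchoalveolar lavage (BAL) fluid, and 5 control mice received this vehicle alone. Each array compared the RNA of 1 lung, in Cy5, with a common reference from 11 mouse cell lines, in Cy3, and dyes were not swapped. Each level below is therefore a log2 ratio of lung to reference after loess normalization, and a level of 1 gene cannot be set against that of another.

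Lipopolysaccharide-binding protein (Lbp) hands bacterial lipid to Cd14, which passes it to Toll-like receptor 4 (Tlr4). Tlr2 recognises bacterial lipoproteins, and both Toll-like receptors signal through the adaptor Myd88. Clec4d (MCL), Clec4e (Mincle), Clec4n (Dectin-2) and Clec7a (Dectin-1) are C-type lectins of myeloid cells that bind fungal or mycobacterial glycans and glycolipids and signal through the kinase Syk. Trem1 amplifies inflammatory signals in neutrophils and monocytes. In the lung, alveolar macrophages, recruited monocytes and neutrophils carry most of these receptors. RNA of whole lung was measured, so more cells of a type and more RNA per cell cannot be told apart.

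RefSeq promoter windows (GRCm38.p6) were at hand for 6 of the 10 genes, Tlr2, Myd88, Clec4d, Clec4e, Clec7a and Trem1. The 250 bases before the start are shown for 4 of them: for the neighbouring lectin genes Clec4d and Clec4e, whose levels turned on the same control mouse, and for Trem1 and Tlr2, which showed little change. Sequences run 5′ to 3′ on the strand of the gene, and capitals mark matches on either strand to the PU.1 core GAGGAA, the C/EBP motif TTGCNNAA, the AP-1 motif TGANTCA or the κB motif. Clec4d lies at chr6:123261857-123262106 (plus strand), Clec4e at chr6:123289872-123290121 (minus strand), Trem1 at chr17:48232489-48232738 (plus strand) and Tlr2 at chr3:83841609-83841858 (minus strand).
Clec4d: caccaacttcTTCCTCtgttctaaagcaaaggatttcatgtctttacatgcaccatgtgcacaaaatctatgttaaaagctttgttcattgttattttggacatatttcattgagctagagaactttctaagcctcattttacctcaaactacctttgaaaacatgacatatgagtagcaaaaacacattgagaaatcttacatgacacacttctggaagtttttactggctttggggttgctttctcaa
Clec4e: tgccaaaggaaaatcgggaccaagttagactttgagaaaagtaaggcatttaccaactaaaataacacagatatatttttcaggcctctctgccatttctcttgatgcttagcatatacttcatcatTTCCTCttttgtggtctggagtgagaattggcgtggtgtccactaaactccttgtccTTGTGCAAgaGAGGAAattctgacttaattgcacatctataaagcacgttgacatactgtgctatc
Trem1: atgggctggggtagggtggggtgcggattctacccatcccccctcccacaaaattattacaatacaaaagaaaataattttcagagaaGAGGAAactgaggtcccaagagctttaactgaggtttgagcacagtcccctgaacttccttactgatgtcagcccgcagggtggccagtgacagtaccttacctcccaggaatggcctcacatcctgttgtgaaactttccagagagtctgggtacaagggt
Tlr2: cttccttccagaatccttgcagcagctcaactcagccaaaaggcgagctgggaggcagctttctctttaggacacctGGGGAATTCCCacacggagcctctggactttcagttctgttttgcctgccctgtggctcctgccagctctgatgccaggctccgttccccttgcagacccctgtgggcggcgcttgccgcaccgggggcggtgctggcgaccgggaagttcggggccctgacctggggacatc
The PU.1 core was present in the windows of 4 of the 6 genes, Clec4d, Clec4e, Clec7a and Trem1, and in 23.3% of all 32841 windows of this length. Clec4e also held a C/EBP match 2 bases from 1 of its PU.1 cores, and that motif was found in 9.57% of all windows. Tlr2 held overlapping matches to the κB motif, which was found in 7.25% of all windows. The AP-1 motif, found in 6.75% of all windows, was in none of the 6. The Myd88 window held no match to any of these motifs. A match describes the letters only, and binding was not measured.

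All 10 genes were above the negative control spots and well above background on every array, so each level given was measured and not only bounded. Cd14 has no level on the 3 arrays of slide 5, where its spot was marked as an outlier. The median Cy5 signal over local background ranged from 1.17 to 2.48 between arrays. The surfactant gene Sftpc, at 7.53 ± 0.24 in controls, and the club cell gene Scgb1a1, at 8.49 ± 0.36 (SD, n = 5 each), were both high, as the lung label calls for. Control 2 stood apart. It had the highest control level of Clec4d, Clec4e, Clec7a, Tlr2, Myd88 and Trem1 and the highest summed signal of 13 neutrophil markers among controls, 281599 against 83781 to 116223 in the other 4. Its sums were also the highest for monocyte and recruited macrophage markers (69731 against 32308 to 41717) and dendritic cell markers (219691 against 137437 to 164801). The lymphocyte marker sum of control 2 was the lowest of the controls (8070), and its alveolar macrophage sum (107516) lay within their range. All such sums are of Cy5 signals after loess and quantile normalization. A marker with all its spots flagged as outliers on an array added nothing to that array's sum. Comparisons that rest on control 2 are given with and without it. This mouse was singled out on the levels of these same genes, so p-values and calls without it follow a choice made on the tested values. Each slide held 3 or 4 arrays and 1 scan, and slides 3 and 6 held no control. The p-values come from limma with dose and slide as terms, adjusted over 55681 probes.

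At 162 µg, the estimates of 7 of the 10 genes lay above control and 3 below, and none reached both an adjusted p of 0.05 and a 1.5-fold change, whereas 7.19% of 16559 expressed genes did. Without the fold minimum, 2 of the 10 passed in limma, Myd88 and Lbp, and 11.1% of all expressed genes did. Both were higher than in control lungs, by just under 1.5-fold. At an unadjusted p of 0.05 the count was 3 of 10, with Cd14 added, and 29.3% of all expressed genes. The median log2 fold change of the 10 genes was 0.34, against -0.0079 for all expressed genes. Without control 2, 4 of the 10 passed both thresholds, Myd88, Clec4d, Clec4e and Lbp, all higher, and 7.17% of 16205 expressed genes did (3.38% higher). Since that mouse was singled out on these genes and not on all genes, the count and the share are not a like comparison.

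**Figure D1:**
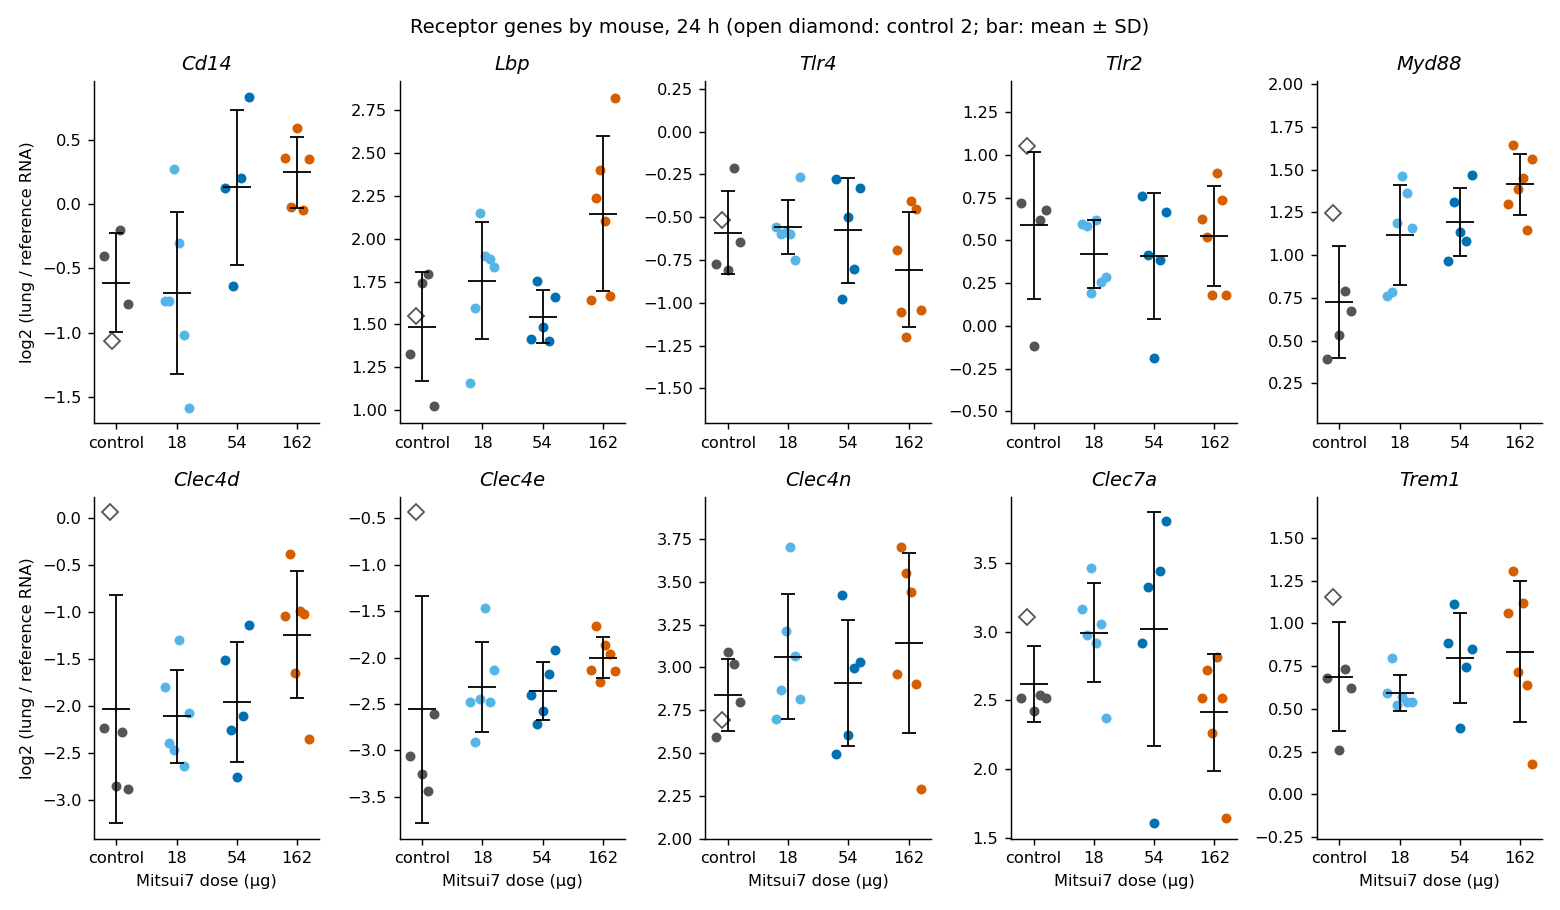
Log2 ratio of lung to reference RNA (vertical axis) of the 10 receptor genes in each mouse, by dose of Mitsui7 in µg (horizontal axis). Points are mice, bars are mean ± SD, and the open diamond is control 2, which lies 2.30 above the next control for Clec4d and 2.17 for Clec4e.

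At 18 µg, 0 of the 10 genes passed in limma (2.17% of all expressed genes), and 1 of 10, Myd88, had an unadjusted p of at most 0.05 (22.5%). At 54 µg, 0 of the 10 passed in the fit over all groups (0.429% of all expressed genes), and 2 of 10, Cd14 and Myd88, had an unadjusted p of at most 0.05 (14.1%). A fit to the 54 µg and control mice alone passed 3 of 10, Cd14 at 0.75, Clec7a at 0.74 and Clec4d at 0.70, and 3.88% of all expressed genes. With slide as a term, that fit rests on slides that held both groups, 3 pairs for Clec7a and Clec4d and 2 for Cd14. Controls 2 and 4 and mice 3 and 5 at 54 µg were on other slides and did not inform these estimates. The 10 genes had a median log2 fold change of 0.045 at 18 µg, with a range from -0.19 to 0.52, and 0.14 at 54 µg, with a range from -0.15 to 0.83, while that of all expressed genes was -0.022 and -0.013. The median at 18 µg changed sign with scaling, to -0.29 with median centring and -0.46 with no normalization, where all expressed genes had medians of -0.26 and -0.42. Between doses, 0 of the 10 passed in limma, where 5.12% of all expressed genes differed between 162 and 18 µg, 0.0362% between 54 and 18 µg and 0% between 162 and 54 µg. At an unadjusted p of 0.05, 3 of 10 passed between 162 and 18 µg (26.8% of all expressed genes), 1 of 10 between 54 and 18 µg (15.2%) and 2 of 10 between 162 and 54 µg (12.6%). All doses are compared with the same 5 controls, so the comparisons are not independent of each other.

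Cd14 had the largest estimate of the 10 genes at 162 µg in the fit over all mice, while that of Clec4d was larger without control 2, in the Cy5 channel alone and under some other settings. Its level was -0.40, -1.07, -0.20 and -0.78 in 4 controls and 0.36, -0.02, 0.60, -0.05 and 0.35 in 5 mice given 162 µg. Every measured mouse at 162 µg lay above every measured control, a pattern of 3.79% of all expressed genes. Most genes had a value for every mouse, and full separation is harder with more mice, so the share is not a like comparison. At 54 µg the levels were 0.13, -0.63, 0.20 and 0.84, and 3 of 4 mice lay above all controls. At 18 µg the levels ran from -1.58 over a median of -0.75 to 0.27 and overlapped with control. The spot had been marked as an outlier on all 3 arrays of slide 5, so control 3, mouse 2 at 54 µg and mouse 2 at 162 µg have no value and are left out of the fit.

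Cd14 had a log2 fold change of 0.89 at 162 µg (standard error, SE, 0.31; adjusted p = 0.120; 1.85-fold) and 0.83 at 54 µg (SE 0.33, adjusted p = 0.460). Against 18 µg, 162 µg was higher by 0.95 (SE 0.29, adjusted p = 0.0856). None of these differences passed. The paper, with its own test, lists Cd14 as significantly higher at 162 µg by array. By RT-qPCR, a PCR measure of RNA, it lists Cd14 as higher at 18, 54 and 162 µg. Cd14 was lowest among controls in control 2, and without that mouse the change at 162 µg was 0.73 (adjusted p = 0.298). Cd14 passed both thresholds at 162 µg when mouse 3 of that group was left out (1.19) or mouse 5 of the 54 µg group (0.98). On slides that held a control, the treated mouse was higher in 3 of 3 pairs at 162 µg, by 0.18 to 1.43. Both such pairs at 54 µg also pointed up, and 2 of 4 at 18 µg did.

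Lbp, the acute phase protein that delivers lipid to Cd14, had an adjusted p under 0.05 at the highest dose but not a 1.5-fold change. Its control levels were 1.33, 1.55, 1.74, 1.79 and 1.02, and at 162 µg they ran from 1.64 over a median of 2.17 to 2.82. The groups overlapped, with 4 of 6 mice at 162 µg above all controls. The change was 0.54 on the log2 scale (SE 0.15, adjusted p = 0.0420, 1.46-fold). Within slides Lbp was higher in 4 of 4 pairs at 162 µg, by 0.10 to 0.65, in 3 of 3 at 54 µg and in 3 of 4 at 18 µg. At 54 µg the levels were 1.42, 1.75, 1.48, 1.40 and 1.66, all within the range of the controls, and at 18 µg they ran from 1.16 over a median of 1.86 to 2.15, with 4 of 6 mice above all controls. The adjusted p of Lbp at 162 µg was above 0.05 under 8 of 13 other settings of processing or fit, and the change was 0.22 with median centring and 0.20 with no normalization. Lbp at 162 µg passed both thresholds without control 2 (0.63, adjusted p = 0.0362), and also without mouse 1 (0.63) or mouse 5 (0.60) of the 162 µg group. Its adjusted p stayed at or below 0.05 in 8 of 22 fits that each left out 1 mouse, and rose to at most 0.159.

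The Toll-like receptors themselves showed no such difference. Tlr4 had control levels of -0.77, -0.52, -0.81, -0.21 and -0.64 and ran from -1.20 over a median of -0.87 to -0.41 at 162 µg. It was the receptor gene with the lowest estimate there, a log2 fold change of -0.27 (95% interval -0.60 to 0.07, adjusted p = 0.437), and 3 of 6 mice lay below all controls. Means at 18 and 54 µg, -0.56 (SD 0.16, 6 mice) and -0.58 (SD 0.31, 5 mice), were within the spread of the 5 controls, at -0.59 ± 0.24, and 1 mouse at 54 µg lay below all controls. Tlr4 was higher in 1 of 4 within-slide pairs at 162 µg, 1 of 3 at 54 µg and 1 of 4 at 18 µg.

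Tlr2 is printed 10 times on each array, and the median SD between those spots was 0.10. Its control levels were 0.72, 1.05, -0.12, 0.62 and 0.68, with control 2 the highest and control 3 the lowest. At 162 µg they ran from 0.18 over a median of 0.57 to 0.89, and all 6 mice lay within the range of the controls. Its log2 fold change there was -0.0089 (95% interval -0.40 to 0.38, adjusted p = 0.992). The 5 controls had a mean of 0.59 (SD 0.43), the 6 mice at 18 µg one of 0.42 (SD 0.20) and the 5 mice at 54 µg one of 0.41 (SD 0.37). Tlr2 was higher in 2 of 4 within-slide pairs at 162 µg, 2 of 3 at 54 µg and 0 of 4 at 18 µg.

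Myd88, the adaptor shared by most Toll-like receptors and the interleukin-1 receptor, had an adjusted p under 0.05 at 162 µg but stayed short of 1.5-fold. Its probe is also printed 10 times, with a median SD between spots of 0.12. Control levels were 0.39, 1.25, 0.53, 0.79 and 0.67. At 162 µg the levels ran from 1.15 over a median of 1.42 to 1.64. Control 2 alone reached into the treated range, and 5 of 6 mice at 162 µg lay above all controls. At 54 µg the levels were 0.97, 1.31, 1.13, 1.08 and 1.47, and at 18 µg they ran from 0.76 over a median of 1.17 to 1.46. At each of these doses 2 mice lay above all controls.

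Myd88 changed by 0.58 on the log2 scale at 162 µg (SE 0.15, adjusted p = 0.0266, 1.49-fold). The estimate was 0.42 at 54 µg (SE 0.16, adjusted p = 0.412). At 18 µg it was 0.34 (SE 0.15, adjusted p = 0.264). The adjusted p at 162 µg stayed at or below 0.05 in 15 of 22 fits that each left out 1 mouse, and rose to at most 0.125. Without control 2 the changes were 0.75 (adjusted p = 0.00352), 0.55 (adjusted p = 0.115) and 0.52 (adjusted p = 0.04996) at 162, 54 and 18 µg. Myd88 also passed both thresholds at 162 µg without mouse 2 (0.59) or 4 (0.60) at 18 µg, mouse 5 at 54 µg (0.59) or mouse 5 at 162 µg (0.62). With control 2 left out, every mouse given 162 or 54 µg lay above the 4 remaining controls, a pattern of 4.73% and 2.04% of all expressed genes. Within slides Myd88 was higher in 4 of 4 pairs at 162 µg, by 0.05 to 1.11, in 3 of 3 pairs at 54 µg and in 3 of 4 at 18 µg (-0.46 to 0.69). The change at 162 µg was 0.24 with median centring and 0.22 with no normalization, and its adjusted p was above 0.05 under 5 of 13 other settings of processing or fit. At 18 µg the direction depended on scaling, since the change was -0.066 with median centring and -0.23 with no normalization.

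**Figure D2:**
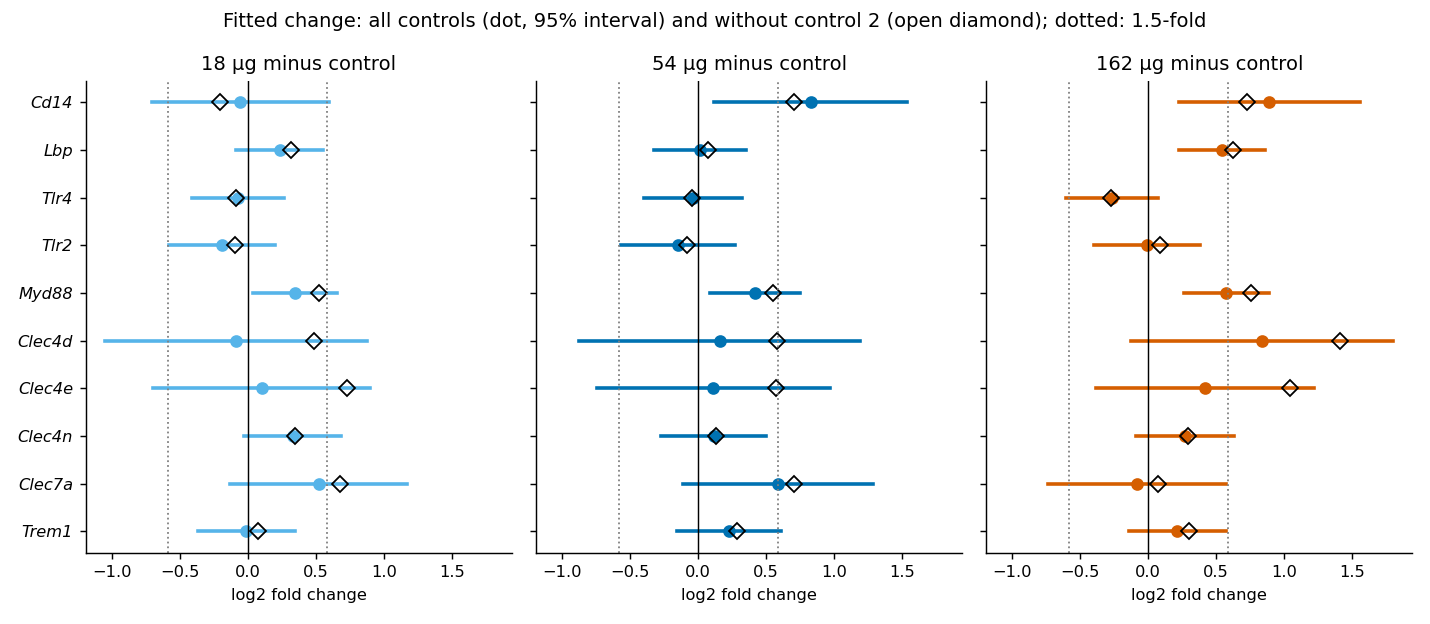
Log2 fold change against control (horizontal axis) of each receptor gene (vertical axis) at 18, 54 and 162 µg. Dots with lines are the fitted change and its 95% interval over all 22 arrays, open diamonds are the change without control 2, and dotted lines mark 1.5-fold. Clec4d at 162 µg moves from 0.84 to 1.41 and Clec4e from 0.42 to 1.04.

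Clec4d, which is carried by neutrophils and monocytes and pairs with Clec4e, had control levels of -2.23, 0.07, -2.86, -2.28 and -2.89. Control 2 thus lay above every treated mouse. At 162 µg the levels ran from -2.35 over a median of -1.03 to -0.38, at 54 µg they were -1.51, -2.26, -2.76, -2.11 and -1.13, and at 18 µg they ran from -2.65 over a median of -2.23 to -1.30. Its estimate at 162 µg was 0.84 (SE 0.46, adjusted p = 0.371). Without control 2 it was 1.41 (SE 0.39, adjusted p = 0.0460), 2.66-fold, and 5 of 6 mice lay above the other 4 controls. Clec4d was higher in 3 of 4 within-slide pairs at 162 µg (-1.11 to 2.48), 3 of 3 at 54 µg and 2 of 4 at 18 µg.

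Clec4e, a receptor for mycobacterial cord factor and for a protein released by dying cells, followed the same mice. Its control levels were -3.06, -0.43, -3.25, -3.44 and -2.61, and control 2 again exceeded every treated mouse. At 162 µg the levels ran from -2.27 over a median of -2.04 to -1.66. At 54 µg they were -2.41, -2.71, -2.57, -2.18 and -1.92. At 18 µg they ran from -2.91 over a median of -2.46 to -1.47. The other 4 controls therefore lay below every mouse given 162 µg (4.73% of all expressed genes), below 4 of 5 given 54 µg and below 5 of 6 given 18 µg.

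For Clec4e at 162 µg the log2 fold change was 0.42 with all controls (SE 0.38, adjusted p = 0.665) and 1.04 without control 2 (SE 0.21, adjusted p = 0.0106), 2.06-fold. In both lectins the spread among controls was mostly that of this 1 mouse. Without control 2 the change was 0.57 at 54 µg (adjusted p = 0.401) and 0.73 at 18 µg (adjusted p = 0.0894), and neither passed. Clec4e was higher in 3 of 4 within-slide pairs at 162 µg (-1.70 to 1.59), 3 of 3 at 54 µg and 3 of 4 at 18 µg.

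Neutrophil markers were read on the same arrays. Summed normalized Cy5 signals of the 13 expressed markers had a median of 108340 in controls and 250426 at 162 µg (166524 to 339914). The medians were 120742 and 166325 at the lower doses, and control 2, at 281599, lay within the range at 162 µg. At 162 µg 10 of the 13 markers were higher and 3 lower, with a median log2 fold change of 0.64, and 1 of 13, Lcn2, passed both thresholds, a share close to the 7.19% of all expressed genes. Lcn2, a secreted iron-sequestering protein also made by airway epithelium, had a level of 2.24 (SD 0.45) in the 5 controls and of 4.03 (SD 0.32) in the 6 mice at 162 µg. The other brightest marker, the receptor Csf3r, was at 1.67 (SD 0.18) and 1.53 (SD 0.22). Medians of the summed signal, which a few bright probes can carry, went from 35199 in controls to 50654 at 162 µg for 11 monocyte and recruited macrophage markers, from 155049 to 135535 for 7 dendritic cell markers, from 969 to 871 for 6 eosinophil markers and from 9025 to 6937 for 10 lymphocyte markers. Gene by gene, 6 of the 11 monocyte and macrophage markers lay above control at 162 µg and 5 below (Arg1 and Spp1 passed, higher), 3 of the 7 dendritic cell markers above and 4 below (none passed), 3 of the 6 eosinophil markers above and 3 below (Ear6 passed, higher), and 2 of the 10 lymphocyte markers above and 8 below (2 passed, lower). The part of cell recruitment in the levels of Clec4d, Clec4e, Myd88 or Cd14 was not tested.

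**Figure D3:**
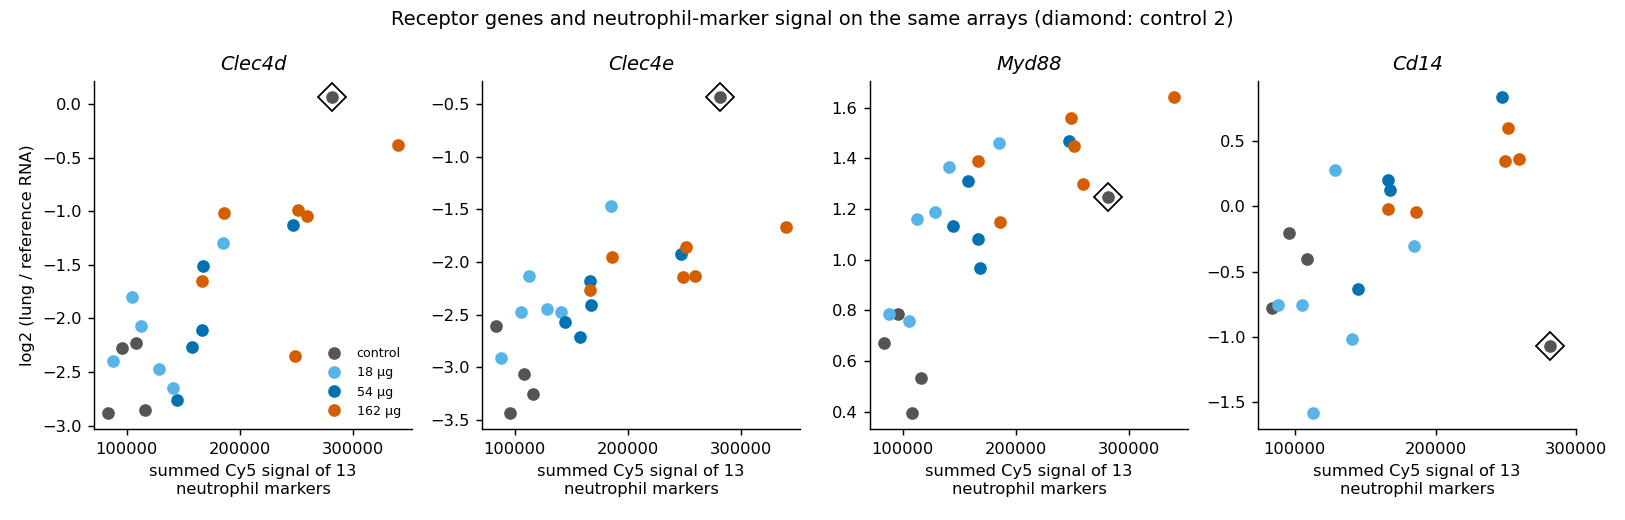
Log2 ratio of Clec4d, Clec4e, Myd88 and Cd14 (vertical axis) against the summed normalized Cy5 signal of 13 neutrophil markers (horizontal axis), 1 point per array and coloured by dose. Control 2 (diamond) lies at 281599 signal units, within the range at 162 µg, and is the highest point for Clec4d and Clec4e and the lowest control for Cd14.

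Among the remaining lectins, Clec4n, which binds fungal mannans, had control levels of 2.59, 2.70, 3.09, 3.02 and 2.80. At 162 µg it ran from 2.29 over a median of 3.20 to 3.70, wider than the controls on both sides. The low side was mouse 6 alone (next 2.91), whose array had the lowest signal over background of the series, 1.17. Mouse 6 was also the lowest of its group for Clec4d, Clec7a, Trem1 and Tlr2 and the highest for Lbp. The part of array signal in these levels was not tested. Within slides Clec4n was higher in 4 of 4 pairs at 162 µg, by 0.11 to 0.61, in 4 of 4 at 18 µg and in 2 of 3 at 54 µg. Its change was 0.27 on the log2 scale (95% interval -0.09 to 0.63, adjusted p = 0.463). The control mean was 2.84 (SD 0.21, 5 mice), and means at the lower doses were 3.06 (SD 0.36, 6 mice) and 2.91 (SD 0.37, 5 mice).

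Clec7a, the receptor for fungal beta-glucan, was the only one of the 10 whose estimates with all controls lay above control at 18 and 54 µg and below it at 162 µg. The last was above control without control 2 (0.072) and in the Cy5 channel alone (0.016), and the first was -0.067 with no normalization. Control levels were 2.52, 3.11, 2.43, 2.54 and 2.51, with control 2 the highest. At 18 µg the levels ran from 2.37 over a median of 3.01 to 3.46, and at 54 µg they were 2.91, 3.33, 1.61, 3.44 and 3.80. At 162 µg they ran from 1.64 over a median of 2.52 to 2.82, with all 6 mice below control 2. Among the mice given 18 µg, 5 of 6 lay above the controls other than control 2, and among those given 54 µg, 4 of 5 did. Clec7a was higher in 3 of 4 within-slide pairs at 18 µg, 3 of 3 at 54 µg and 2 of 4 at 162 µg.

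Clec7a had estimates of 0.52 (SE 0.31, adjusted p = 0.464) at the low, 0.59 (SE 0.33, adjusted p = 0.684) at the middle and -0.083 (SE 0.31, adjusted p = 0.946) at the high dose. The difference of 162 µg from 54 µg was -0.67 (SE 0.31, adjusted p = 0.617) and from 18 µg -0.60 (SE 0.29, adjusted p = 0.317), and neither passed. The low mouse 3 at 54 µg carried much of the error. Without it, 162 µg was below 54 µg by -1.11 (adjusted p = 0.0432). That mouse was singled out here on its Clec7a level, so this p-value follows a choice made on the tested values. Over all mice, 0% of all expressed genes differed between 162 and 54 µg. Summed signals of 12 alveolar macrophage markers, whose cells carry Clec7a, had a median of 90939 in controls and medians of 221727, 143112 and 142736 at the 3 doses in rising order. The sums and the single genes differed in direction, since 8 of the 12 markers lay below control at 18 µg (median log2 fold change -0.40), 8 at 54 µg (-0.28) and 4 at 162 µg (0.12). Of the 2 brightest, Chil3 was at 5.27 (SD 0.32) in the 5 controls and at 6.93 (SD 1.01) in the 6 mice at 18 µg, where it alone of the 12 passed, and Ear2 was at 6.40 (SD 0.38) and 6.55 (SD 0.35). Their part in the level of Clec7a was not tested.

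Trem1 had control levels of 0.68, 1.15, 0.26, 0.73 and 0.62, and ran from 0.18 over a median of 0.89 to 1.30 at 162 µg. The groups overlapped. The estimate was 0.21 on the log2 scale (95% interval -0.14 to 0.57, adjusted p = 0.598). At 18 µg the 6 mice were close together, at 0.59 (SD 0.10), and at 54 µg the mean of 5 mice was 0.80 (SD 0.26). With control 2 left out the estimate at 162 µg was 0.30 (adjusted p = 0.454). Trem1 was higher in 2 of 4 within-slide pairs at 162 µg, 3 of 3 at 54 µg and 0 of 4 at 18 µg.

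Other receptors and their signalling genes were read from 6 lists with 98 genes on the array, of which 91 were expressed. These were 16 Toll-like receptors and co-receptors, 14 adaptors, kinases and inhibitors, 17 further C-type lectins, 12 signalling genes of lectins and Trem receptors, 13 Trem and Cd300 receptors and 19 other pattern recognition receptors. At 18 and at 54 µg, 0 of the 91 passed both thresholds in limma over all groups. At 162 µg, 2 were higher and 3 lower, 5 of 91 against 7.19% of all expressed genes, and the median log2 fold change of the 91 was -0.03. The higher ones were Marco, a scavenger receptor of macrophages that binds unopsonised particles, at 1.51 (SE 0.28, adjusted p = 0.00457), and the C-type lectin Cd302, at 1.17 (SE 0.21, adjusted p = 0.00350). The lower ones were the endosomal receptor Tlr12, at -0.94 (SE 0.15, adjusted p = 0.00157), Hsp90b1, the endoplasmic reticulum chaperone that Toll-like receptors need to fold, at -0.89 (SE 0.26, adjusted p = 0.0479), and the scavenger collectin Colec12, at -0.65 (SE 0.14, adjusted p = 0.00862).

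Marco, Cd302 and Tlr12 passed in 22 of 22 fits that each left out 1 mouse, Colec12 in 20 of 22 (not without control 3 or without mouse 2 at 162 µg) and Hsp90b1 in 5 of 22. The Marco level was 4.39 (SD 0.81) in the 5 controls and 5.96 (SD 0.37) in the 6 mice at 162 µg, and the groups overlapped. Tlr12 went from 1.19 (SD 0.34) to 0.16 (SD 0.33), with every mouse at 162 µg below every control, as for 4.64% of all expressed genes. In the 3 lists where no gene passed, the largest estimates at 162 µg were 1.07 for the inhibitory receptor Cd300lf (adjusted p = 0.0728), 0.60 for Malt1, a protease downstream of the lectins (adjusted p = 0.339), and 0.52 for Tnfaip3, an inhibitor of this signalling (adjusted p = 0.0808). The signalling genes of the lectins had 0 of 12 past both thresholds against control in limma over all groups. Without control 2, 2 of them passed at 18 µg (2.59% of all expressed genes), the Fc receptor gamma chain Fcer1g at 0.75 (adjusted p = 0.0250) and the phospholipase Plcg2 at 0.66 (adjusted p = 0.0335). At 162 µg, 8 genes of the 6 lists passed without that mouse, against 7.17% of all expressed genes, with Cd300lf, Sting1, Tlr13 and Trem2 added, all higher, and Hsp90b1 lost.

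**Figure D4:**
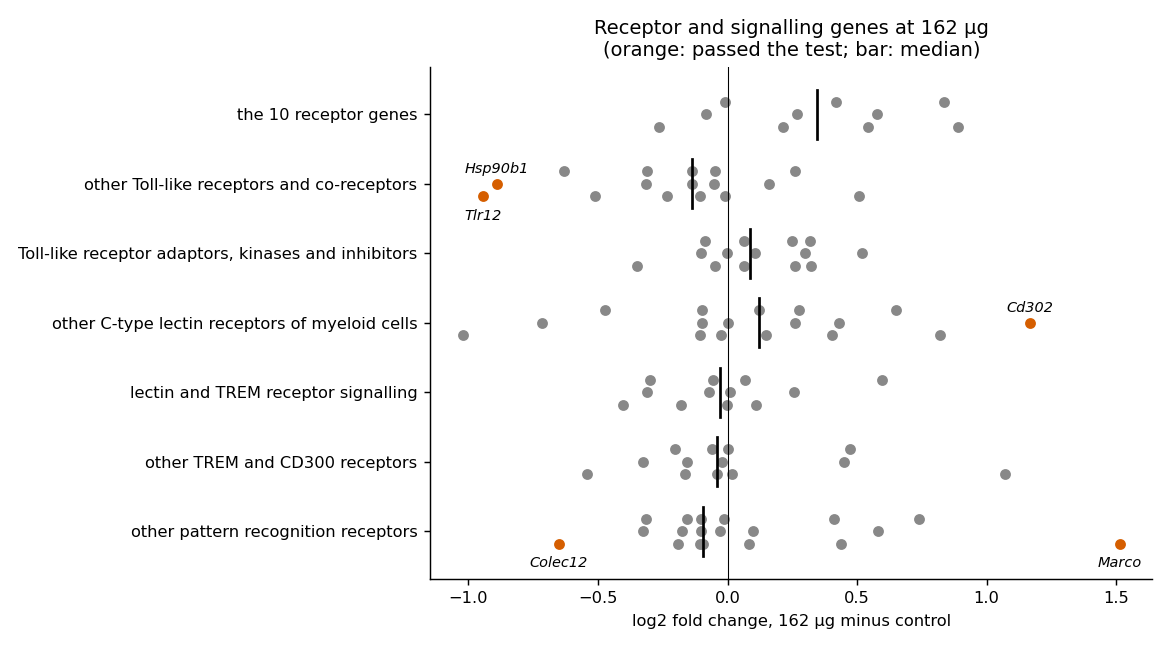
Log2 fold change at 162 µg against control (horizontal axis) of the 10 receptor genes and of the expressed genes of 6 lists of related receptors and signalling genes (vertical axis). Points are genes, orange points passed both thresholds (Marco, Cd302, Tlr12, Hsp90b1 and Colec12), and black bars are medians, 0.34 for the 10 receptor genes.

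The genes whose levels followed the mean of the 10 receptor genes most closely over the 22 arrays, each gene scaled to its own spread, were Il1b (Pearson r = 0.90), Lilrb4a (0.89), Cxcr2 (0.86), Mefv (0.83), Retnlg (0.82), Osmr (0.78), Tgfbi (0.78) and Fcgr3 (0.78), out of 15101 candidates. These values share arrays, slides and the same control mouse. The list was picked for likeness, so the coefficients are a description. None of the 8 passed both thresholds at 162 µg.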

How the data were processed

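Lung RNA of 22 mice was measured on dual-colour arrays with a common reference. The authors deposited intensity values for each spot in both channels, as median pixel signals neither background subtracted nor normalized, written per the file headers by Feature Extraction (version 10.7.3.1), and a table of log2 ratios whose normalization is not given in the sources used here. The intensities gave the values reported, and the deposited log2 table an alternative.

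Spots flagged as outliers were dropped, Cy5/Cy3 log ratios were loess normalized array by array (span 0.3), and the median was taken over the spots of each of 55681 probes. Of these, 26413 were named by RefSeq accession (GRCm38.p6) and 262, Clec7a among them, through the study's tables. A gene is represented by its brightest probe.

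In R 4.3.3, limma 3.58.1 was fitted with dose and slide over 22 arrays and 7 slides (12 residual degrees of freedom), with Benjamini-Hochberg adjustment over all probes. The shrinkage F test of the study's methods was not used. To pass, an expressed gene needed an adjusted p no higher than 0.05 together with a 1.5-fold change. Expressed means a Cy5 signal over the trimmed mean (5% trimmed) plus 3 trimmed SDs of negative controls in 80% or more of a group's arrays. The fit was run on simulated data with no slide differences and with changes larger than any estimate of the receptor genes over all mice. That run does not show how often changes of their size would be found. Error ranges are SD over mice, and the number of arrays limits precision.

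The 10 genes and all lists were chosen with earlier results of these data known. Named beside the 10 are genes of each list that passed (with or without control 2), or its largest change at 162 µg, the 2 brightest markers of a list where quoted, and the 8 genes most like the 10.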

Additional observations from a re-analysis of the deposited data

Results flagged for a closer look

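Of 40 sets of values (10 genes in 4 groups), 4 held a mouse far from the rest of its group, by a gap to its nearest neighbour that was large against the whole range, and chance alone gives about 1 in 20. Control 2 was the distant mouse in 3 of them, at 0.07 for Clec4d (next control -2.23), -0.43 for Clec4e (next -2.61) and 3.11 for Clec7a (next 2.54). The other was mouse 2 at 18 µg, at 0.80 for Trem1 (next 0.59). The neutrophil, monocyte and dendritic cell marker signals of control 2 were the highest of the controls, and their part in these levels was not tested. In the fit over all 22 mice, no difference between doses passed for any of the 10 genes.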

How the results depend on the processing

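Groups of 5 or 6 mice limited precision, and the part of signal over background in it was not tested. Directions and calls of the single-gene changes in the text were recomputed under 13 other settings besides leaving out mice. The count of the 10 genes past both thresholds at 162 µg, 0 in the report, was 1 (Myd88) in the Cy5 channel alone, with no slide term, and with the replicate block in place of slide, 2 (Myd88 and Lbp) with slide as a random block and 2 with adjusted p alone (6.49% to 7.81% of all expressed genes in the first 4 of these settings and 11.1% in the last), and 0 to 4 with 1 mouse left out (4 without control 2). At 54 µg it was 3 when only the groups compared were fitted, each of the 3 resting on 2 or 3 within-slide pairs. It was 0 to 0 at 18 and at 54 µg with 1 mouse left out. Between doses it was 0 to 2, with Cd14 and Clec7a without mouse 3 at 54 µg, and Cd14 also without mouse 5 at 54 µg or mouse 3 at 162 µg. Cd14 passed between 162 and 18 µg and Clec7a between 162 and 54 µg. Over all mice, 5.12% and 0% of all expressed genes differed there. Shares between doses were not computed with 1 mouse left out, so these counts have no like share beside them. The count of 5 related genes, taken over all 3 doses, became 1 with median centring and 0 with no normalization. At 162 µg those settings passed 2.17% and 0.0423% of all expressed genes. The count became 11 with the replicate block in place of slide and 14 with only the groups compared (7.81% and 7.49% at 162 µg). With 1 mouse left out it was 3 to 13. It was 13 without mouse 5 at 54 µg and 10 without control 2 (8.25% and 7.17% at 162 µg). Adjusted p at 162 µg rose above 0.05 for Lbp and Myd88 with median centring (0.755 and 0.813), no normalization (0.9996 for both), the deposited table (0.0919 and 0.0609), the replicate block with slide (0.181 and 0.336) and only the groups compared (0.0928 and 0.115), and for Lbp also with normexp (0.0658), no slide term (0.0575) and Cy5 alone (0.290). The cause was not tested.

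Some signs changed. Trem1 at 162 µg was -0.051 with median centring and -0.070 with no normalization, and Clec4n at 162 µg was -0.0076 with no normalization. Myd88 at 18 µg was -0.066 and -0.23, and Clec7a at 18 µg was -0.067 with no normalization. Median centring moved the median of all expressed genes at 162 µg to -0.18 and no normalization to -0.21, and the median of the 10 genes lay 0.25 and 0.26 above them. Tlr2 at 162 µg was 0.15 in the Cy5 channel alone and 0.0048 in the deposited table, and Clec7a at 162 µg was 0.016 in the Cy5 channel alone. With 1 mouse left out, Tlr2 ran from -0.19 to 0.083 and Clec7a from -0.25 to 0.072 at 162 µg, both highest without control 2.

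Replicate numbers recur across groups, and 20 of 31 same-numbered pairs of different groups correlated above 0.1. On different slides it was 10 of 20 same-numbered pairs, against 30 of 137 differently numbered ones. On the same slide it was 10 of 11 against 10 of 13. Samples with equal numbers may thus share a structure. The sample labels name no pairing, so the main fit has no replicate term, and replicate blocks were fitted as alternatives. Under the replicate block with slide, Tlr2 at 162 µg was 0.042 and Clec7a at 162 µg was 0.051. Quantile normalization between arrays left the log ratios as they were. The normexp alternative used median signals, since the mean Cy5 signal was not used here.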
